A study of Mus musculus with 60 samples.

Results

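Transcripts of the synaptic adhesion genes Nrxn2, Nrxn3, Nlgn1, Nlgn2 and Nlgn3 were followed through hippocampus, prefrontal cortex and striatum of wild-type mice and of mice with an altered Adgrl3 gene. The 5 genes were taken by symbol from a count table of 21950 protein-coding genes, and each symbol stood on 1 feature. There were 60 RNA sequencing libraries, 10 for each of 2 genotypes in each of 3 regions. The mice were homozygous for the altered Adgrl3 gene (Adgrl3 -/-, here KO) or wild type (Adgrl3 +/+, here WT). All were adults of postnatal day 65 to 76, with 12 mice per genotype named in the labels' protocols. The regions were microdissected from frozen brains. The sources used here give neither sex, strain or litter nor the design of the altered allele, and the labels name no drug or other agent. The labels name no promoter or cell type that limits the change in Adgrl3, and the libraries are of bulk tissue, neurons and glia together.

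Neurexins are presynaptic membrane proteins and neuroligins are their postsynaptic partners. The pair bridges the synaptic cleft and takes part in organising the release machinery on one side and the receptors and scaffolds on the other. Each neurexin gene gives a long alpha form and a short beta form from separate start sites, and alternative splicing of both sets which partners can bind. Neuroligin-1 is found mainly at excitatory synapses, neuroligin-2 mainly at inhibitory synapses and neuroligin-3 at both. Latrophilin-3, the product of Adgrl3, is a postsynaptic adhesion receptor as well, with teneurins and FLRT proteins as its best known ligands.

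The reads were counted over whole genes, introns included, so the long and short forms of a neurexin were not separated. Nrxn2 (ENSMUSG00000033768.16) spans 125 kb of chromosome 19 (6418731 to 6544169, plus strand; GRCm38 here and for all positions). Nrxn3 (ENSMUSG00000066392.11) spans 1612 kb of chromosome 12 (88722876 to 90334935, plus strand). Nlgn1 (ENSMUSG00000063887.13) spans 906 kb of chromosome 3 (25426215 to 26332460, minus strand). Nlgn2 (ENSMUSG00000051790.15) spans 14.7 kb of chromosome 11 (69823122 to 69837784, minus strand). Nlgn3 (ENSMUSG00000031302.16) spans 26.8 kb of the X chromosome (101299168 to 101325963, plus strand). No other gene of the table overlaps any of the 5 on the same strand, and Slc22a12 overlaps Nrxn2 on the opposite strand.

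To show what is pooled in such a count, the 250 bases before an internal start of Nrxn3 are given beside the 250 bases before the start of Nlgn2, the most compact of the 5 genes. Both come from RefSeq (GRCm38.p6), whose table held start windows for Nrxn3, Nlgn1 and Nlgn2, and capitals mark CG dinucleotides. The Nrxn3 window (chr12:89812233-89812482, plus strand) overlaps no annotated exon of the gene. It lies within an intron of the long transcript Nrxn3-205 (4713 coding bases) and directly before the start of the short transcripts Nrxn3-202 and Nrxn3-203 (1701 and 1290 coding bases). The Nlgn2 window (chr11:69837785-69838034, minus strand) lies just outside the gene.
Nrxn3 internal start: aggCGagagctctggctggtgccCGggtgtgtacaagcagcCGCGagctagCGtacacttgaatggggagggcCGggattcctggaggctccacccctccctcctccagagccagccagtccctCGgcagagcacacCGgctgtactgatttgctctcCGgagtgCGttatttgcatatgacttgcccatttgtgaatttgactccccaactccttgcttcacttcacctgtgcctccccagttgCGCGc
Nlgn2 start: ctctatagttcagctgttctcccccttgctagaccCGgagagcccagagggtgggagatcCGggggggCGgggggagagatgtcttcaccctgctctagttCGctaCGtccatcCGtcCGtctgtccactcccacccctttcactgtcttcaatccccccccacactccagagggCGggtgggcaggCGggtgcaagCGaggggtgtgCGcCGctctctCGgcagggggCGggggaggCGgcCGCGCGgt
The Nrxn3 window held 12 CG dinucleotides at 60% GC, and 33.5% of 32851 RefSeq windows of this length held as many or more. The Nlgn2 window held 18 at 67.6% GC, which 21.7% of the windows reached. The median window had 6.

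Library totals ran from 38985577 to 51387833 counted reads, and each of the 5 genes had between 3162 and 25520 reads in every library. Levels are given as CPM, the gene's count relative to its library's total after TMM scaling over the 60 libraries. Adgrl3 itself lay at means of 34.9, 35.3 and 41.8 CPM in KO hippocampus, prefrontal cortex and striatum against 125, 149 and 163 CPM in WT, with no KO library above 46.9 and no WT library below 117 CPM. The labelled regions carried their own markers. Summed over 8 genes of striatal projection neurons, WT libraries had medians of 4554 CPM in striatum, 137 in hippocampus and 161 in prefrontal cortex. The 6 hippocampal markers (719 CPM in hippocampus, 323 and 352 elsewhere) and the 6 cortical ones (610.5 CPM in prefrontal cortex, 225 and 246 elsewhere) followed the labels too. Single hippocampal libraries reached 508 (WT) and 472 CPM (KO) of the striatal markers.

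In wild-type mice Nrxn2 and Nlgn2 were highest in prefrontal cortex, Nrxn3 was highest in striatum, and Nlgn1 and Nlgn3 were nearly level across the regions. Among the WT libraries, 2 of the 5 genes passed the test between striatum and hippocampus, 4 between striatum and prefrontal cortex and 3 between hippocampus and prefrontal cortex. Of all tested genes, 66.6%, 71.5% and 68.5% passed in the same comparisons (edgeR quasi-likelihood, Benjamini-Hochberg adjusted p under 0.05), and nothing is read from these counts of 5. No member differed by 1 or more on the log2 scale, which 10.2%, 11.6% and 10.1% of all genes did. In bulk tissue, fewer cells of a type and less RNA per cell cannot be told apart.

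**Figure D1:**
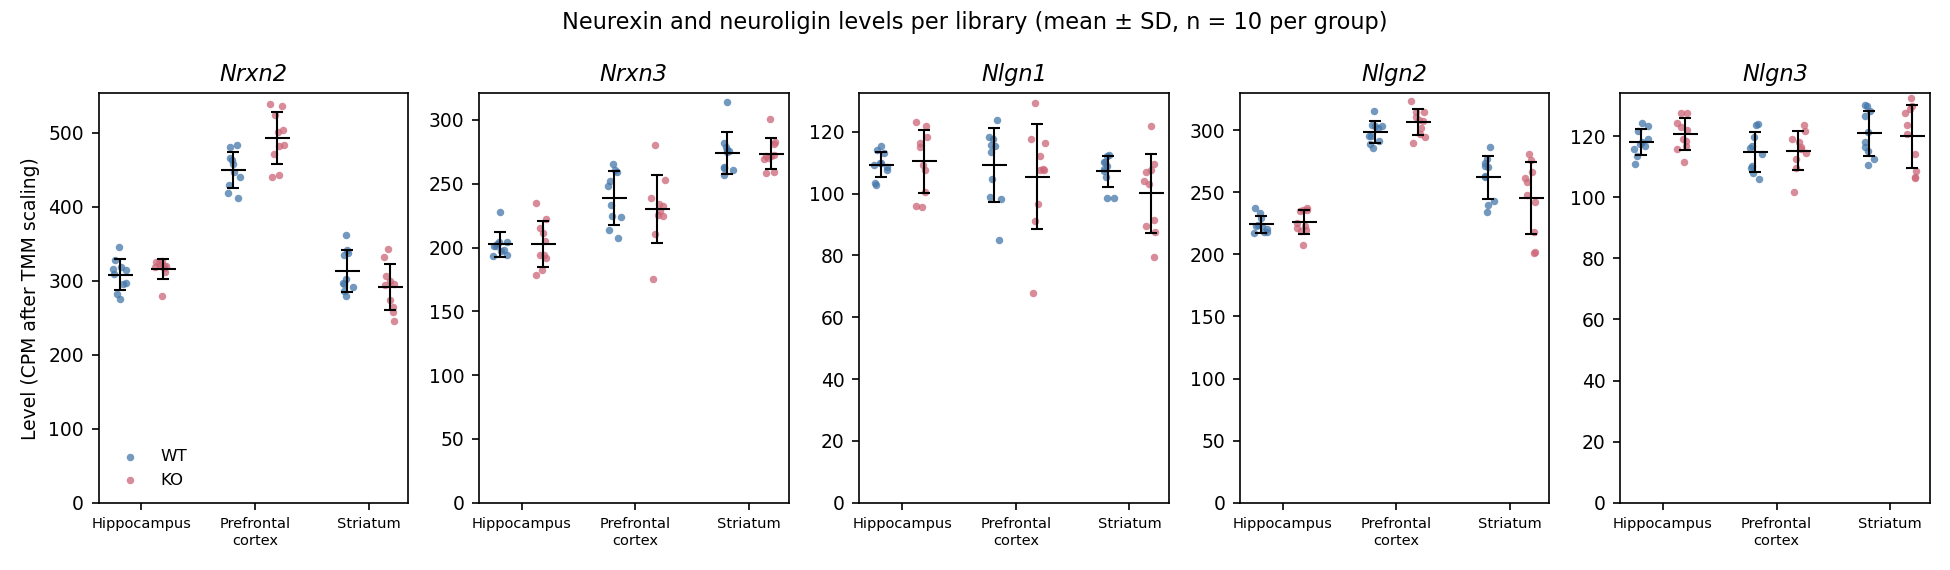
Level of each of the 5 genes (CPM after TMM scaling, vertical axis from 0, a separate scale per gene) in each library, by region and genotype. Points are libraries, bars the mean ± SD of 10. Nrxn2 and Nlgn2 peak in prefrontal cortex, Nrxn3 in striatum, and the WT and KO points of a region overlap for every gene.

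Nrxn2, which encodes neurexin-2, had WT levels of 308 ± 21.03 CPM in hippocampus, 449.7 ± 24.7 in prefrontal cortex and 313 ± 28.7 in striatum (SD, n = 10 each). The lowest, median and highest WT libraries had 276, 312 and 346 CPM in hippocampus, 412, 452 and 483 CPM in prefrontal cortex, and 279, 299.9 and 362 CPM in striatum. Every prefrontal library thus lay above every library of the other regions, while hippocampus and striatum overlapped through most of their range. On the log2 scale Nrxn2 was lower than in prefrontal cortex by -0.54 ± 0.05 (SE) in hippocampus and -0.52 ± 0.05 in striatum, at adjusted p of 3.81e-12 and 6.82e-12 (edgeR). Such a separation without overlap was found for 28% and 33.2% of all tested genes. Striatum and hippocampus differed by 0.02 ± 0.05, with a 95% confidence interval from -0.07 to 0.11.

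Nrxn3, which encodes neurexin-3, rose from 202 ± 9.61 CPM in hippocampus to 239 ± 20.9 in prefrontal cortex and 274 ± 16.4 in striatum of WT mice (SD, n = 10). The lowest, median and highest libraries had 193, 201 and 228 CPM in hippocampus, 207, 241 and 265 in prefrontal cortex, and 256, 275 and 314 in striatum. All striatal libraries exceeded all hippocampal ones, whereas the prefrontal range met both neighbours. Each step of this order passed the test: 0.44 ± 0.04 (log2 ± SE) for striatum over hippocampus, 0.20 ± 0.04 for striatum over prefrontal cortex and -0.23 ± 0.04 for hippocampus against prefrontal cortex (edgeR adjusted p of 6.79e-11, 7.64e-05 and 1.06e-05). Groups that do not overlap made up 27.5% of all genes between striatum and hippocampus. The ratio of Nrxn3 to Nrxn2 counts was 0.532 ± 0.0417 in prefrontal cortex, 0.661 ± 0.0700 in hippocampus and 0.884 ± 0.104 in striatum (SD, n = 10).

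Nlgn2, the neuroligin of inhibitory synapses, also differed between each pair of regions, in the order hippocampus, striatum, prefrontal cortex. Its WT levels were 224 ± 6.87, 262 ± 17.5 and 298 ± 9.01 CPM (SD, n = 10). The lowest, median and highest libraries had 217, 223 and 238 CPM in hippocampus, 234, 267 and 286 in striatum, and 286, 299 and 316 in prefrontal cortex. Hippocampus and prefrontal cortex did not overlap, which held for 28% of all tested genes. Of the 10 striatal libraries, 9 were above every hippocampal and 9 below every prefrontal library. The log2 differences were -0.41 ± 0.03 for hippocampus against prefrontal cortex, 0.22 ± 0.03 for striatum against hippocampus and -0.19 ± 0.03 for striatum against prefrontal cortex (edgeR adjusted p of 2.66e-13, 1.58e-07 and 2.98e-06).

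Nlgn1, the neuroligin of excitatory synapses, differed between the 3 regions by less than its spread. WT means were 109 ± 4.12 CPM in hippocampus, 109 ± 12.0 in prefrontal cortex and 107 ± 5.03 in striatum (SD, n = 10). The libraries ran from 103 through a median of 109.6 to 115 CPM in hippocampus, from 85.1 through 114 to 124 in prefrontal cortex, and from 98.5 through 108 to 113 in striatum. The prefrontal libraries spread most, and their range enclosed the others. None of the 3 contrasts passed (edgeR), and their 95% confidence intervals ran from -0.13 to 0.06 for striatum against hippocampus, from -0.12 to 0.07 for striatum against prefrontal cortex and from -0.09 to 0.10 for hippocampus against prefrontal cortex on the log2 scale.

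Nlgn3, the neuroligin found at both kinds of synapse, had 118 ± 4.19 CPM in hippocampus, 115 ± 6.40 in prefrontal cortex and 121 ± 7.36 in striatum of WT mice (SD, n = 10). Its lowest, median and highest libraries were 111, 118 and 124 CPM in hippocampus, 106, 115 and 124 in prefrontal cortex, and 111, 119.7 and 130.1 in striatum. The ranges overlapped in each comparison. Striatum was above prefrontal cortex by 0.08 ± 0.03 on the log2 scale (edgeR adjusted p = 0.0443). That call was lost under 3 of 4 alternatives, DESeq2, RLE size factors and no filter on low counts (adjusted p of 0.117, 0.102 and 0.0989), and on leaving out any of 7 of the 10 replicate numbers, 1, 2, 4, 6, 7, 8 or 9 (adjusted p of 0.0513 to 0.169). Hippocampus differed from striatum and prefrontal cortex by less than the spread, with intervals from -0.04 to 0.10 and from -0.02 to 0.11.

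The regions also differed in cell markers that are not neurexin or neuroligin genes. Summed over 5 genes of all neurons (Snap25, Syt1, Rbfox3, Stmn2 and Tubb3), WT medians were 5736 CPM in prefrontal cortex (libraries of 5567 to 6292), 3937 in hippocampus (3576 to 4381) and 3608 in striatum (3161 to 3900). Summed over 4 oligodendrocyte genes (Mbp, Mog, Mag and Mobp) they were 888 CPM (684 to 953), 1846 (1447 to 2544) and 4299 (3125 to 6112). Summed over 5 genes of inhibitory neurons (Gad1, Gad2, Pvalb, Sst and Vip) they were 723 CPM (667 to 804), 681 (633 to 718) and 1223 (1124 to 1347). This last sum does not separate interneurons from the inhibitory projection neurons of striatum. All 14 marker genes were above 0 in every library. The part of these markers in the region differences was not tested.

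Because the genes differ in length, levels between genes were compared per kb of annotated exon. In WT prefrontal cortex Nlgn2 stood at 51.6 ± 1.56 CPM per exon kb, Nrxn2 at 32.6 ± 1.79, Nrxn3 at 19.0 ± 1.66, Nlgn3 at 12.4 ± 0.691 and Nlgn1 at 8.13 ± 0.893 (SD, n = 10). The same order held for the group means in WT hippocampus and WT striatum. In WT striatum the neighbours Nrxn2 (22.7 ± 2.07) and Nrxn3 (21.8 ± 1.30) differed by less than their spread, and in KO striatum Nrxn3 had the higher mean (21.7 ± 0.968 against 21.1 ± 2.28). Intron reads are part of these counts. Per kb of the whole gene the levels in WT prefrontal cortex were 20.4 CPM for Nlgn2, 4.28 for Nlgn3, 3.58 for Nrxn2, 0.148 for Nrxn3 and 0.120 for Nlgn1, which puts Nlgn3 before both neurexins.

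The KO libraries, from other animals, gave the same pattern for Nrxn2, Nrxn3 and Nlgn2 against prefrontal cortex. Nrxn2 was lower than in prefrontal cortex by -0.64 ± 0.05 in hippocampus and -0.76 ± 0.05 in striatum (log2 ± SE; edgeR adjusted p of 1.11e-12 and 1.53e-14), with no overlap of libraries. Nlgn2 was lower by -0.44 ± 0.05 and -0.32 ± 0.05 (adjusted p of 2.99e-09 and 9.81e-07), again without overlap. Among all genes 29.9% did not overlap between KO striatum and prefrontal cortex, 24.8% between hippocampus and prefrontal cortex and 25.1% between striatum and hippocampus. Nrxn3 in striatum exceeded prefrontal cortex by 0.25 ± 0.06 and hippocampus by 0.43 ± 0.06, and hippocampus stood at -0.18 ± 0.06 against prefrontal cortex (adjusted p of 2.23e-04, 5.39e-08 and 0.00496). Over all genes, 62.5%, 70.9% and 66% passed in KO for striatum against hippocampus, striatum against prefrontal cortex and hippocampus against prefrontal cortex, and 56.7%, 64.6% and 60.1% passed in both genotypes in the same direction. Nlgn1 passed in no KO contrast and neither did Nlgn3. With the replicate number as a block, Nlgn1 did pass between KO striatum and hippocampus, at -0.15 (edgeR adjusted p = 0.0168), where it stood at -0.14 ± 0.08 (log2 ± SE; adjusted p = 0.155) without the block.

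**Figure D2:**
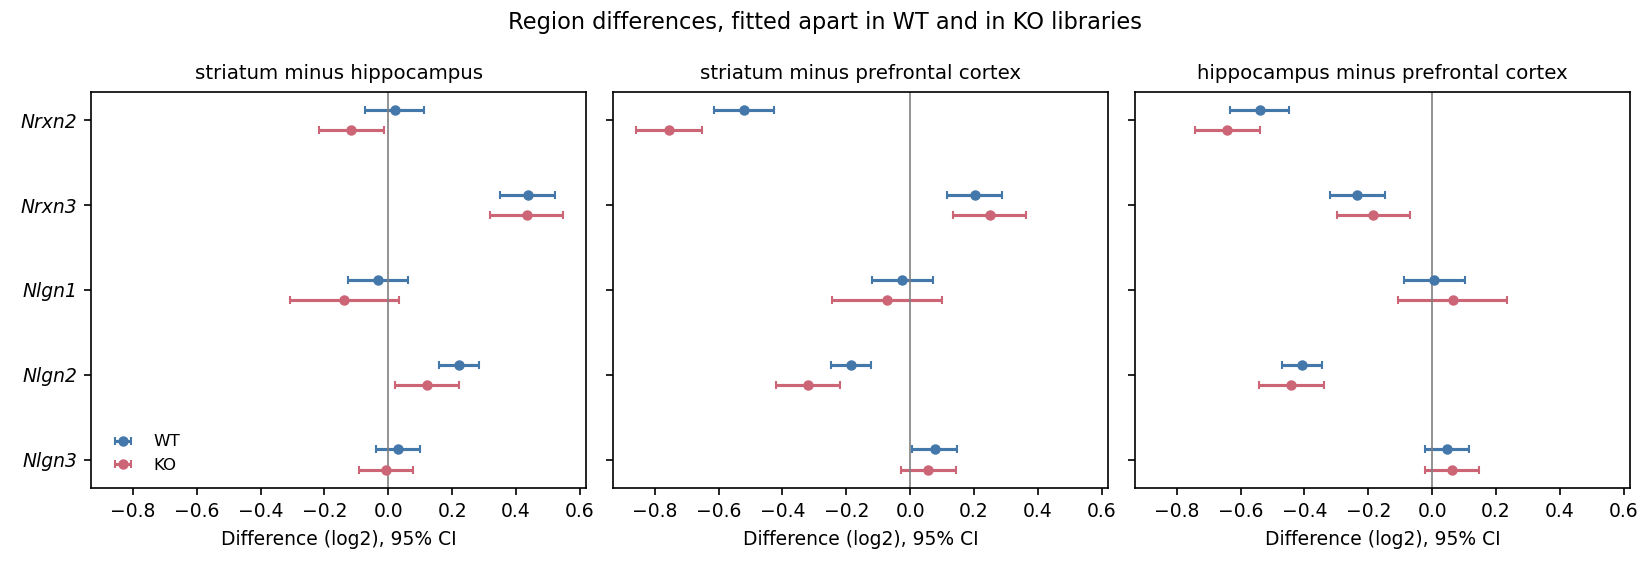
Log2 difference between regions with its 95% confidence interval (horizontal axis) for each gene, fitted apart in the 30 WT and the 30 KO libraries. Nrxn2 lies left of 0 against prefrontal cortex in both genotypes, Nrxn3 lies right of 0 for striatum, and the intervals of Nlgn1 include 0 throughout.

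Between striatum and hippocampus 3 of the 5 genes passed in KO, where 2 had in WT. Of all tested genes 62.5% passed in KO and 66.6% in WT, and nothing is read from these counts of 5. Besides Nrxn3, Nrxn2 was lower in KO striatum by -0.12 ± 0.05 (edgeR adjusted p = 0.0460), and Nlgn2 was higher by 0.12 ± 0.05 (adjusted p = 0.0326). Neither call was stable. Of the 4 striatal libraries with the highest summed oligodendrocyte markers, 3 were KO replicates 10, 8 and 9 (6369, 6318 and 6008 CPM, where the KO median was 4627) and 1 was WT replicate 5 (6112 CPM). These 3 KO libraries also had the lowest Nrxn2, Nlgn2 and Nlgn3 levels of all striatal libraries. Leaving them out was therefore bound to raise the values of KO striatum. Without them Nrxn2 differed by -0.04 (edgeR adjusted p = 0.436) and Nlgn2 by 0.22 (adjusted p = 2.29e-06). The WT value for Nlgn2, 0.22, kept all WT libraries, replicate 5 included. Without only replicates 8 and 10, which are among the 3 highest, Nrxn2 differed by -0.07 (adjusted p = 0.226) and Nlgn2, still called, by 0.19. Leaving out single KO replicate numbers ended the Nrxn2 call for 1, 5, 7, 8, 9 and 10 (adjusted p up to 0.135) and the Nlgn2 call for each number from 1 to 7 (adjusted p up to 0.111). Nlgn3 passed in KO striatum against prefrontal cortex at 0.12 without the 3 libraries (adjusted p = 0.00440) and at 0.09 without replicates 8 and 10 (adjusted p = 0.0363), where it stood at 0.06 ± 0.04 with them.

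None of the 5 genes was called between KO and WT. None passed in hippocampus, prefrontal cortex or striatum, where 0.128%, 0.117% and 0.0514% of all tested genes did (edgeR, Benjamini-Hochberg). At an unadjusted p under 0.05 there was 1 of 5 in prefrontal cortex, Nrxn2, and 0 in the other regions, against 8.14%, 11.8% and 7.14% of all genes in hippocampus, prefrontal cortex and striatum. DESeq2 called none of the 5 either. The widest 95% confidence interval over the 15 values, that of Nlgn1 in prefrontal cortex, ran from -0.24 to 0.12 on the log2 scale.

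**Figure D3:**
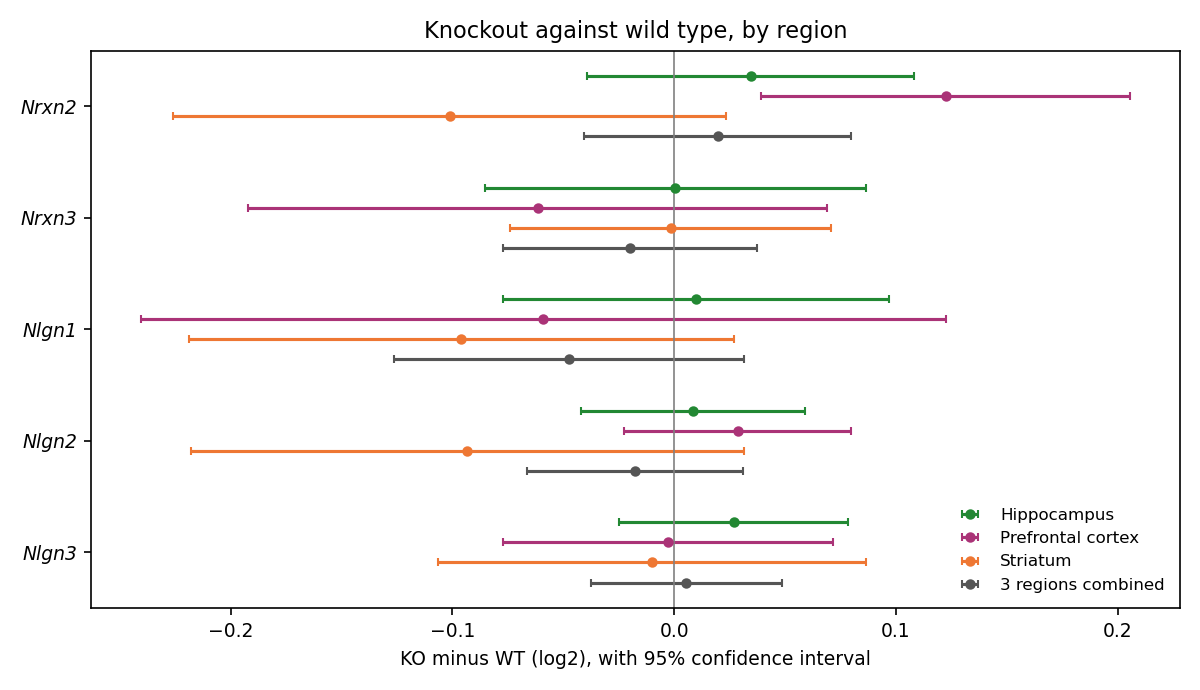
KO minus WT on the log2 scale (horizontal axis) with its 95% confidence interval for each gene, in each region (10 KO and 10 WT libraries) and over the 3 regions combined (60 libraries). Only the interval of Nrxn2 in prefrontal cortex, 0.04 to 0.21, leaves out 0.

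Nrxn2 in prefrontal cortex had the largest difference of the 5 genes. KO libraries ran from 439.9 through a median of 493 to 539 CPM, with a mean of 493 ± 34.9, against a WT mean of 449.7 ± 24.7 (SD, n = 10 each). Of the 10 KO libraries, 6 were above the highest WT library and 8 above the WT median, while KO replicates 2 and 10 (444 and 439.9 CPM) lay within the lower part of the WT range. The difference was 0.12 ± 0.04 (log2 ± SE), with p = 0.00574 before and 0.196 after adjustment over 15376 genes (edgeR). Over its alternatives the adjusted p ran from 0.132 to 0.926. Markers of the olfactory bulb and of red blood cells moved with genotype in the same libraries. Summed over Eomes, Doc2g, Cdhr1 and Tbx21, the 10 WT libraries had a median of 48.0 CPM (5.45 to 98.3) and the 10 KO libraries 6.92 (4.32 to 50.8). With the olfactory bulb markers as a covariate the Nrxn2 difference was 0.13, beside 0.12 without it, at an adjusted p of 0.926 (edgeR). That adjustment runs over all tested genes, of which 6 were called with the covariate and 18 without it. Summed over 5 erythrocyte genes (Hba-a1, Hba-a2, Hbb-bs, Hbb-bt and Alas2), the medians were 676 CPM in WT (387 to 887) and 412 in KO (300.4 to 621), and the part of these genes in the Nrxn2 difference was not tested. Summed oligodendrocyte markers were highest in KO replicates 2 and 10, at 1382 and 1301 CPM, where WT libraries had 684 to 953. KO replicates 3, 4 and 8 also exceeded every WT library, at 1081, 963 and 1067 CPM. Their Nrxn2 levels were 505, 536 and 501 CPM, and the part of these markers was not tested either. In hippocampus KO Nrxn2 ran from 279.9 through 319.6 to 326 CPM, within the WT range, and differed by 0.03 ± 0.04. In striatum it differed by -0.10 ± 0.06. A test of whether the KO difference of Nrxn2 varies with region gave p = 0.00482 and an adjusted p of 0.945 (edgeR), in a comparison in which 0.0248% of all genes passed.

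In striatum the KO values of Nrxn2, Nlgn1 and Nlgn2 stood -6.78%, -6.43% and -6.26% from WT, at log2 differences of -0.10 ± 0.06, -0.10 ± 0.06 and -0.09 ± 0.06 (± SE) that did not pass (edgeR adjusted p of 0.738, 0.747 and 0.749). KO Nrxn2 ran from 245 through a median of 295 to 343 CPM. KO Nlgn1 ran from 79.6 through 104 to 122 CPM and KO Nlgn2 from 201 through 253 to 281 CPM. The low ends came from the same libraries. KO replicates 8, 9 and 10 had 245, 265 and 258 CPM of Nrxn2, the lowest of the 20 striatal libraries. They had 202, 218 and 201 CPM of Nlgn2, the lowest as well, and the same held for Nlgn3 at 109, 106 and 107 CPM. Their Nlgn1 levels were 87.6, 91.4 and 79.6 CPM, and KO replicate 2 had 89.5. Nrxn3 was not low in these libraries, at 283, 281 and 272 CPM against a KO median of 272.

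These 3 were among the 4 striatal libraries with the highest oligodendrocyte markers. Their summed neuron markers were 3273, 3141 and 3441 CPM, where the KO median was 3447. KO replicate 5 and WT replicate 9 had neuron sums in that range, 3231 and 3161 CPM. They had 276 and 271 CPM of Nlgn2, 132 and 130 of Nlgn3, and 274 and 287 of Nrxn2. The part of the neuron markers was not tested. Of the 4 libraries highest in oligodendrocyte markers the other, WT replicate 5, had 302 CPM of Nrxn2, 98.5 of Nlgn1, 239.9 of Nlgn2 and 115 of Nlgn3. Without the 4 libraries the KO minus WT differences in striatum were -0.04 for Nrxn2, -0.03 for Nlgn1, -0.02 for Nlgn2 and 0.04 for Nlgn3. Without only the 3 highest (KO replicates 8 and 10 and WT replicate 5) they were -0.06, -0.05, -0.05 and 0.02. With the mean log2 level of the 4 oligodendrocyte genes as a covariate they were -0.06, -0.06, -0.05 and 0.02. None of these values was called, and the alternatives were chosen after the values were seen. The KO libraries left out were among the lowest in Nrxn2, Nlgn1, Nlgn2 and Nlgn3, so leaving them out was bound to raise the KO means.

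**Figure D4:**
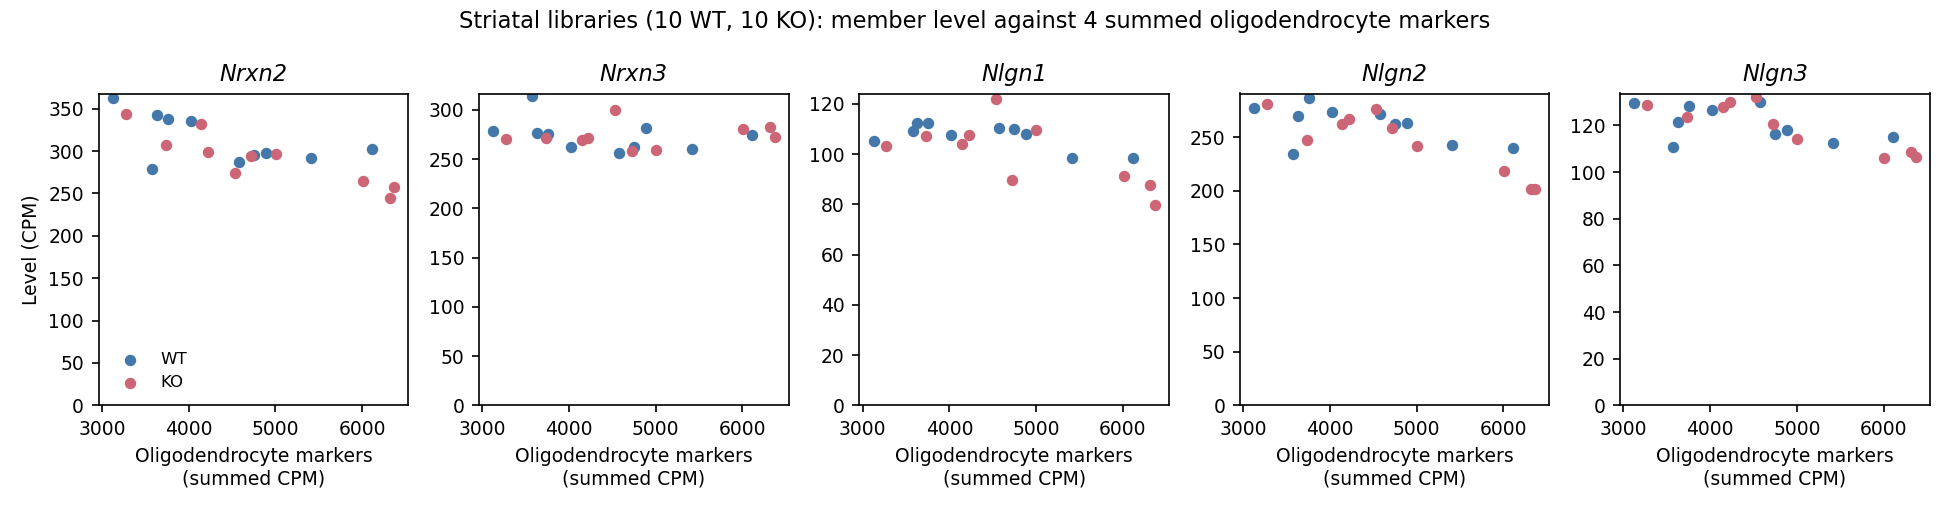
Level of each gene (CPM, vertical axis from 0) in the 10 WT and 10 KO striatal libraries against the summed level of 4 oligodendrocyte genes (CPM, horizontal axis). Of the 4 libraries at the right, between 6008 and 6369 CPM, the 3 KO libraries have the lowest Nrxn2, Nlgn2 and Nlgn3 points, while their Nrxn3 points lie among the others.

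The remaining KO differences were small against their errors. Nrxn3 had means of 203 ± 18.0, 230.3 ± 26.9 and 274 ± 12.2 CPM in KO hippocampus, prefrontal cortex and striatum (SD, n = 10), and differed from WT by 0.00 ± 0.04, -0.06 ± 0.06 and -0.00 ± 0.03 on the log2 scale. Nlgn1 had 110.4 ± 10.2, 105 ± 17.0 and 100.2 ± 12.8 CPM in KO. In hippocampus its difference was 0.01 ± 0.04, with 4 KO libraries above and 3 below the WT range of 103 to 115 CPM, and in prefrontal cortex -0.06 ± 0.09. Nlgn2 had 226 ± 9.81, 306 ± 10.4 and 245 ± 29.2 CPM in KO and differed by 0.01 ± 0.02 in hippocampus and 0.03 ± 0.02 in prefrontal cortex. Nlgn3 had 121 ± 5.21, 115 ± 6.37 and 119.9 ± 10.2 CPM and differed by 0.03 ± 0.02, -0.00 ± 0.04 and -0.01 ± 0.05. In prefrontal cortex KO replicate 10 was the lowest of the 20 libraries for Nrxn3 (176 CPM), Nlgn1 (67.8) and Nlgn3 (102).

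Over the 3 regions combined, with region as a term and 60 libraries, none of the 5 genes passed, while 4.06% of all tested genes did. The differences were 0.02 ± 0.03 for Nrxn2, -0.02 ± 0.03 for Nrxn3, -0.05 ± 0.04 for Nlgn1, -0.02 ± 0.02 for Nlgn2 and 0.01 ± 0.02 for Nlgn3 (log2 ± SE), at adjusted p between 0.558 and 0.923 (edgeR). Their intervals reached from -0.13 (Nlgn1) to 0.08 (Nrxn2). Their median was -0.02, beside 0.00 over all 15987 genes.

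The proteins that bind neurexins and neuroligins were read from 6 lists with 44 genes. They are secreted neurexin ligands, membrane partners, the MAM-domain proteins that bind neuroligins, cytoplasmic partners on each side of the synapse, and regulators of neurexin splicing. Within a region none passed between KO and WT, of 43 tested in hippocampus, 44 in prefrontal cortex and 43 in striatum (edgeR). At an unadjusted p under 0.05 there were 5, 9 and 3, where 8.14%, 11.8% and 7.14% of all tested genes were, and nothing is read from these counts. Combined over the regions, 3 of 43 rose and none fell, beside 2.16% and 1.9% of all genes. The median log2 difference of the 43 was 0.01, that of all genes 0.00.

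Lrrtm2 and Lrrtm1 encode leucine-rich repeat proteins of the excitatory postsynapse that bind neurexins. Lrrtm2 had 69.1 ± 4.48, 79.2 ± 7.93 and 96.4 ± 5.28 CPM in KO hippocampus, prefrontal cortex and striatum against 62.6 ± 3.75, 72.2 ± 4.53 and 87.5 ± 7.17 in WT (SD, n = 10). In the 3 regions 10, 9 and 10 of the 10 KO libraries were above the WT median, although the ranges overlapped. Lrrtm2, Lrrtm1 and Shank3 were picked by their calls in the combined fit of these same libraries. Counts of their libraries within a region are therefore no separate support for the calls. The combined difference of Lrrtm2 was 0.14 ± 0.03 (log2 ± SE; edgeR adjusted p = 5.50e-04), and with counts summed per replicate number the adjusted p was 0.0497. Lrrtm1 had 119.1 ± 7.76, 62.9 ± 4.09 and 70.7 ± 7.19 CPM in KO against 113 ± 9.61, 57.3 ± 2.60 and 63.9 ± 5.77 in WT, a combined difference of 0.12 ± 0.03 (adjusted p = 0.00981). Of its 10 KO prefrontal libraries 8 were above every WT library. Its call was lost on summed counts (adjusted p = 0.320) and with the replicate block (0.0660). Shank3, a scaffold of excitatory synapses, had 324 ± 20.97, 283 ± 17.1 and 448 ± 30.1 CPM in KO against 309 ± 18.4, 261 ± 11.9 and 433 ± 35.8 in WT. It rose by 0.08 ± 0.02 (adjusted p = 0.0454), which was lost on summed counts (0.276) and with the block (0.188). The summed erythrocyte markers had lower medians in KO than in WT in all 3 regions. They were 257 against 400.1 CPM in hippocampus and 295 against 321 in striatum. Choroid plexus markers (Ttr, Folr1 and Kl) in hippocampus had medians of 406 CPM in KO (37.0 to 2954) and 1445 in WT (51.1 to 2578). Oligodendrocyte markers there had 1476 CPM in KO (1250 to 3145) and 1846 in WT (1447 to 2544). The part of these markers in the 3 calls and in the hippocampal values of the 5 genes was not tested. Both Lrrtm genes lie inside a catenin gene on the other strand, Ctnna1 for Lrrtm2 and Ctnna2 for Lrrtm1. Of 493 pairs in the table with a gene of at least 6000 reads inside another on the same strand, 0 had fewer reads in the outer gene, and of 222 pairs on opposite strands 82 did, so reads on opposite strands were counted apart.

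**Figure D5:**
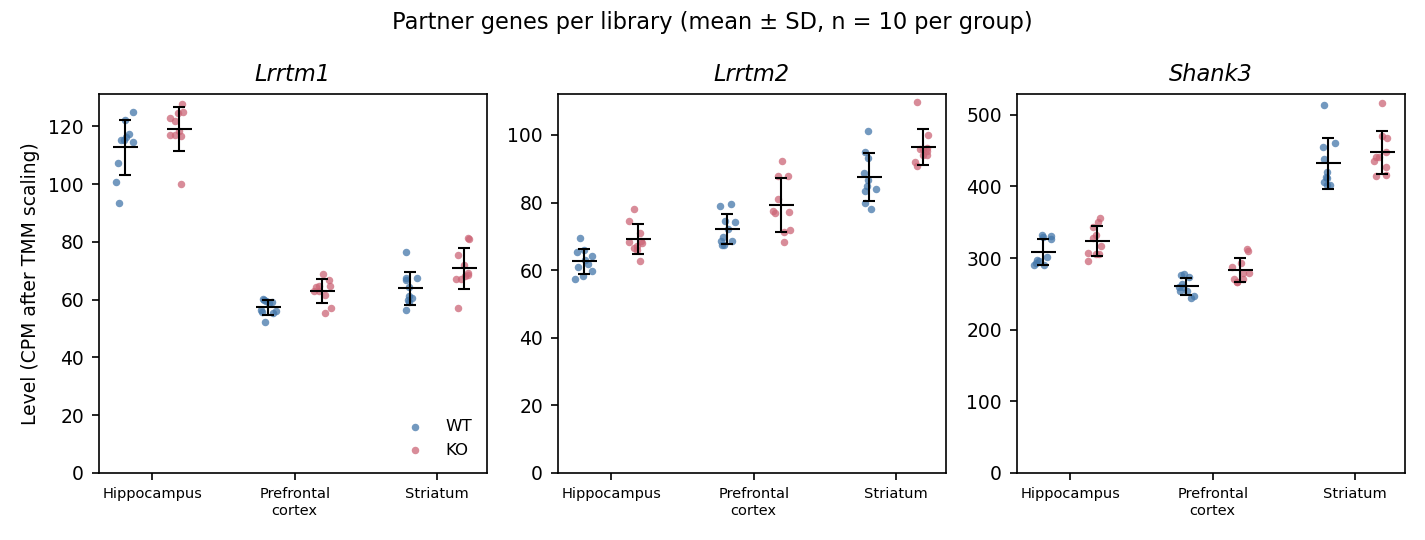
Levels of Lrrtm1, Lrrtm2 and Shank3 (CPM after TMM scaling, vertical axis from 0) in each library by region and genotype, with mean ± SD of 10. KO means lie above WT means in all 3 regions for each gene, and the points overlap.

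The other lists had no call between KO and WT. Their values of smallest p were those of Cbln1, a secreted cerebellin that links neurexins to glutamate receptors, in prefrontal cortex (5.90 ± 0.559 CPM in KO and 7.85 ± 1.34 in WT, log2 difference -0.42 ± 0.09, edgeR adjusted p = 0.0560), and of Mdga1 and Khdrbs3 in hippocampus (0.13 ± 0.06, adjusted p = 0.584, and 0.07 ± 0.03, adjusted p = 0.610). Among the presynaptic partners it was Cask in hippocampus (0.04 ± 0.03, adjusted p = 0.729). All 10 KO prefrontal libraries of Cbln1 were below the WT median. They are the libraries whose olfactory bulb markers also had the lower median, and the part of those markers was not tested. The 3 calls of the combined fit treat the 60 libraries as independent. Counts summed per replicate number gave 27 called genes in place of 649.

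Between regions most of the partner genes differed. Among WT libraries 21 of 43 were higher and 19 lower in striatum than in hippocampus, 13 higher and 20 lower in striatum than in prefrontal cortex, and 12 higher and 22 lower in hippocampus than in prefrontal cortex (edgeR). Over all genes 32.7% and 33.9%, 36.9% and 34.6%, and 36.9% and 31.6% passed in these directions. The largest log2 differences among those called in both genotypes were of secreted ligands. C1ql2, a complement-like ligand of mossy fibre synapses, had 70.3 CPM in hippocampus against 0.949 in prefrontal cortex and 1.25 in striatum (6.22 ± 0.15 and -5.82 ± 0.15 on the log2 scale for hippocampus against prefrontal cortex and striatum against hippocampus). Fam19a1 had 10.7 CPM in striatum, 51.4 in hippocampus and 57.6 in prefrontal cortex. Cbln2 had 10.9 CPM in hippocampus and 60.3 in prefrontal cortex (-2.47 ± 0.13). Nxph4, a neurexophilin, had 6.40 CPM in striatum and 1.38 in prefrontal cortex (2.21 ± 0.21).

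Of the membrane partners 9 of 9 passed between WT striatum and hippocampus, 6 higher and 3 lower, beside 66.6% of all tested genes. Between striatum and prefrontal cortex 7 passed (71.5% of all genes), and between hippocampus and prefrontal cortex 8 (68.5%). Nothing is read from these counts. Lrrtm3 was higher in striatum (75.6 against 24.7 CPM, 1.61 ± 0.08) and Clstn2, a calsyntenin, lower (119 against 327 CPM, -1.45 ± 0.05). Clstn1 was lower in striatum than in prefrontal cortex (1004 against 1707 CPM, -0.76 ± 0.03). Mdga1, whose product binds neuroligins and blocks their contact with neurexins, was higher in hippocampus (77.5 CPM) than in striatum (32.2) and prefrontal cortex (20.1), and Mdga2 was highest in striatum (65.9 CPM, against 45.0 in hippocampus and 42.2 in prefrontal cortex).

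Of the presynaptic adaptors all 6 passed between WT striatum and prefrontal cortex, with 5 lower in striatum. Of all tested genes 71.5% passed there, 34.6% as lower. Between striatum and hippocampus 5 of the 6 adaptors passed (66.6% of all genes), and between hippocampus and prefrontal cortex 6 (68.5%). Nothing is read from these counts. Apba2 was at 127 CPM in striatum and 249 in prefrontal cortex (-0.97 ± 0.04), and Apba1 at 166 and 266 (-0.68 ± 0.04). Of the 8 postsynaptic cytoplasmic partners 2 were higher and 4 lower in striatum than in prefrontal cortex, beside 36.9% and 34.6% of all genes. Shank1 (216 against 568 CPM, -1.39 ± 0.07) and Shank2 (136 against 243, -0.83 ± 0.06) were the furthest. Shank3 was higher in striatum than in hippocampus (433 against 309 CPM, 0.48 ± 0.04). Khdrbs3, whose product (SLM2) regulates inclusion of a neurexin exon, had 77.4 CPM in striatum, 142 in hippocampus and 174 in prefrontal cortex (-1.16 ± 0.05 for striatum against prefrontal cortex). The KO libraries gave the same direction for each of the genes named here for a region difference.

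The genes with levels most like those of each of the 5 were found by Pearson's r of log2 CPM over the 60 libraries, given as a description without a test, since the libraries share regions. For Nrxn2 they were Cep170b, Rims1 and Irgq (r of 0.97, 0.97 and 0.96), where Rims1 encodes an active zone scaffold. For Nrxn3 they were Robo2, Gsk3b and Pcdh11x (0.93, 0.93 and 0.92), and for Nlgn2 Ctnnd2, Pacs1 and Ap2a1 (0.95, 0.95 and 0.94). Nlgn1 and Nlgn3, which varied little between regions, had lower values, 0.84, 0.83 and 0.82 with Slitrk4, Rab11fip2 and Ube3c and 0.79, 0.78 and 0.78 with Gatad2b, Nol6 and Ap1g1. Among the 5, Nrxn2 and Nlgn2 were most alike (0.85), and Nrxn2 and Nrxn3 stood at -0.08.

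After the 6 group means were taken out, other pairs came forward. Nlgn2 and Nlgn3 deviated together (r = 0.75, n = 60 libraries), as did Nrxn3 and Nlgn1 (0.74), whereas Nrxn3 with Nrxn2 and with Nlgn2 stood at 0.08 and 0.07. The nearest genes were then Akap11, Chrna7 and Nbea for Nlgn1 (0.90, 0.89 and 0.88), Adgrl1, Nova2 and Gnaz for Nlgn2 (0.89, 0.89 and 0.81), Rapgef2, Pip4k2b and Adgrl1 for Nlgn3 (0.85, 0.85 and 0.84), Dnajb14, Snx13 and Ube3a for Nrxn3 (0.82 each) and Rims1, Lonrf2 and Astn1 for Nrxn2 (0.79, 0.77 and 0.76). Adgrl1 encodes latrophilin-1, a relative of the Adgrl3 product that can bind neurexins. The longest coding transcripts of Nrxn2 and Nlgn2 were 62.4% and 60.7% GC, and those of Nrxn3 and Nlgn1 47.5% and 38.9%, with 49.3% for Nlgn3. The 100 genes most like them in deviation had median GC of 51.4% for Nrxn2, 53.8% for Nlgn2, 42.1% for Nrxn3, 44.5% for Nlgn1 and 51.7% for Nlgn3, against 50.2% over all tested genes. For Nlgn3 the gene itself lay below that median and its like genes above it, while for the other 4 both lay on the same side. Median transcript lengths of the like genes were 6.11, 4.76, 7.50, 7.80 and 6.87 kb in the same order, against 3.09 kb over all tested genes. The part of composition and length in the likeness was not tested.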

How the data were processed

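The deposited table holds whole-number read counts per gene and library, made by the authors and not normalised. Per the file headers, a count covers the whole gene, introns included. STAR 2.5.2b, bedtools, cutadapt 1.16, FastQC 0.11.4, DESeq2 1.16.1 and GRCm38 are named per the submitters' processing notes, with no role or order. All 5 genes had the same span in GENCODE M21.

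Counts were tested with edgeR 4.0.16 (R 4.3.3; TMM, filterByExpr, robust quasi-likelihood), with Benjamini-Hochberg adjustment at 0.05 over all tested genes. Each KO against WT fit used the 20 libraries of a region, region contrasts used the 30 libraries of a genotype, and the combined fit and the interaction used all 60. Scripts were tested on simulated data. DESeq2 1.42.0, limma 3.58.1 (voom), other scaling, filters, replicate blocks and left-out libraries were alternatives. The labels do not state which libraries share a mouse, so p-values measure the spread between these libraries. Libraries of 1 number deviated together (r above 0.1) in 10 of 10 pairs for prefrontal cortex with striatum and with hippocampus in each genotype, so the numbers were taken to pair them there. The replicate block changed no call of the 5 genes in those contrasts. All library pairs within a group differed beyond counting noise.

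The named genes are the 5 genes in every comparison and Adgrl3. From the partner lists they are each gene called between KO and WT or else that of smallest p, and for regions up to 2 per list and contrast of largest change among those called in both genotypes, of which the main ones are given. The 3 genes most correlated with each of the 5 are named as well. The 5 genes, the lists and the tests were chosen with earlier results of these data known. Of the lists, 2 genes are not reported here and enter no sum or count of a list.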

Additional observations from a re-analysis of the deposited data

Results flagged for a closer look

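Over 30 groups of 10 libraries (5 genes in 6 groups), 3 held a library that stood apart from the other 9 by Dixon's 95% criterion, which chance gives in about 1 group in 20. Nrxn2 in KO hippocampus replicate 2 was low, at 279.9 CPM. That library also had the highest summed oligodendrocyte and striatal projection neuron markers of the KO hippocampal libraries. They stood at 3145 and 472 CPM, where the KO medians were 1476 and 128, and their part was not tested. Nrxn3 in WT hippocampus replicate 4 was high, at 228 CPM, and Nrxn3 in WT striatum replicate 10 was high, at 314 CPM.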

How the results depend on the processing

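The count of 0 of the 5 genes called between KO and WT held under every alternative run: 7 in hippocampus, 8 in prefrontal cortex and 10 in striatum besides 20 left-out libraries in each, 5 combined and 3 for the interaction. The counts of called members between regions also stayed within 1.5 times, apart from KO striatum against hippocampus, where leaving out single replicate numbers gave 1 to 2 in place of 3. Leaving out libraries in KO region contrasts, the oligodendrocyte covariate and the removal of the 3 or 4 striatal libraries highest in oligodendrocyte markers were chosen after seeing the data.

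Counts over all genes moved, and the cause was not tested. In hippocampus 20 genes became 47 with DESeq2, 5 with the replicate block and 12 to 26 with 1 library left out. In prefrontal cortex 18 became 222 with DESeq2, 55 with voom weights, 208 with all 60 libraries in 1 fit, 10 with the replicate block, 6 with the olfactory bulb covariate and 9 to 68 with 1 library left out. In striatum 8 became 28 with DESeq2, 22 with all 60 libraries, 3 with the replicate block, 18 and 15 without those 3 and 4 libraries and 5 to 15 with 1 left out. The combined 649 became 27 on summed counts and 190 with a random replicate block (voom, consensus correlation 0.198). The 4 interaction genes became 17 (DESeq2), 1 (RLE) and 0 (replicate block).

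Values that changed sign lay near 0, apart from Nlgn1 in KO striatum against prefrontal cortex, and the cause was not tested. Nlgn1 for hippocampus against prefrontal cortex in WT (0.01) gave -0.00977 with DESeq2, -0.00966 with RLE, -0.00318 without a filter and -0.0257 to 0.0239 with 1 number left out. Nrxn3 in hippocampus between KO and WT (0.00) gave -0.00171 without a filter, -0.00423 at 1 CPM, -0.00241 with voom, -0.00250 with the replicate block, -2.66e-06 as a difference of mean log2 CPM and -0.0233 to 0.0207 with 1 left out. Nlgn1 and Nlgn2 there ran from -0.00766 to 0.0300 and -0.000653 to 0.0202 with 1 left out. Nlgn3 in prefrontal cortex (-0.00) gave 0.0144 with voom, 0.00338 in the fit of 60, 0.0180 with the olfactory bulb covariate, 0.00617 as a difference of means and -0.0148 to 0.0165 with 1 left out. In striatum Nrxn3 (-0.00) gave 0.000727 without a filter, 0.000202 at 1 CPM, 0.00199 with the oligodendrocyte covariate and -0.0169 to 0.0231 with 1 left out. Striatal Nlgn3 (-0.01) gave 0.0213 with that covariate, 0.0158 and 0.0435 without the 3 and 4 libraries and -0.0267 to 0.00824 with 1 left out. In KO, without the libraries among the 3 and the 4, Nlgn3 in striatum against hippocampus gave 0.0317 and 0.0587 (-0.0281 to 0.0209 with 1 number left out). Nlgn1 in KO striatum against prefrontal cortex stood at -0.07 ± 0.08 (log2 ± SE) and gave 0.0121 without those among the 4.

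The replicate numbers did not pair KO with WT libraries, nor striatum with hippocampus throughout (8 of 10 pairs above 0.1 in each genotype, with 6 of 10 libraries closest to their own number). With the block, Nlgn1 in KO striatum against hippocampus passed at -0.15 (edgeR adjusted p = 0.0168). Without a filter Nlgn2 there missed the threshold (adjusted p = 0.0544). Each of the 5 genes had at least 3162 reads in every library, which limits its counting error.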
